A study of Arabidopsis thaliana with 12 samples.

Results

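The WRKY transcription factors described here are 47 genes of 37336 in the table of leaf transcripts, taken by their gene IDs from a list. The list was chosen with earlier results of these data known. Each of the 47 had reads, and all belong to the 30388 genes tested. The genome annotation holds 69 genes with a WRKY name, so a group of the family means here its listed members only. RNA-seq was performed on mature leaves of 4-week-old *Arabidopsis* plants, pooled from at least 3 plants per library, with 3 libraries in each of 4 groups. Col-0, the wild type, and *rtnlb16-1* (Salk_122275, a T-DNA line) were each grown under LD (16 h light and 8 h dark at about 80 µmol per m2 and s) or under CLL (continuous low light at about 50 µmol per m2 and s). The labels give the hours of light and dark in both orders, and the order of the treatment field and of the study's methods is used here. The CLL intensity is that of the labels, and the methods give a lower one. The *rtnlb16-1* allele lacks an isoform of *RTNLB16*, which encodes an ER-shaping reticulon-like protein, and overexpresses the other isoforms next to the CaMV35S sequences of its T-DNA, so it is neither a plain knockout nor a plain overexpressor, and it is 1 line. The LD libraries are numbered 47 to 52 and the CLL libraries 65 to 70, so light regime and library number cannot be told apart.

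WRKY proteins are plant transcription factors that bind W-box DNA through a conserved domain with a zinc finger. The family is divided by the number of these domains and the type of zinc finger into groups I, IIa to IIe and III. Many members are induced by pathogens or salicylic acid (SA), some are phosphorylated by MAP kinases, and several are known in *Arabidopsis* leaves for their part in defence, senescence, phosphate starvation and the response to abscisic acid (ABA). Because WRKY promoters often hold W-boxes themselves, members can act on each other.

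Each of the 47 genes carries the stretch of 21 coding bases for the signature heptapeptide of the domain, in 2 copies in the 9 members of group I and in 1 copy in the other 38. The sixth codon of the stretch was CAA in 34 copies, CAG in 20 and AAG in 2. The following stretches are shown because the first pair belongs to a related pair with some of the largest genotype differences, and the second pair holds the 2 AAG codons (sequences by TAIR10.1 coordinates, 5′ to 3′ on the coding strand, sixth codon in capitals). Over 21 bases, 21 were identical between *WRKY54* and *WRKY70*, and 18 between *WRKY50* and *WRKY51*.
WRKY54 (chr2:17001378-17001398, minus strand): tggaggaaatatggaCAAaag
WRKY70 (chr3:20909760-20909780, minus strand): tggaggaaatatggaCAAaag
WRKY50 (chr5:9147579-9147599, minus strand): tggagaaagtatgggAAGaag
WRKY51 (chr5:25908864-25908884, plus strand): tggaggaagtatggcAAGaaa

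W-boxes were searched as TTGACC or TTGACT on both strands (the reverse complements read GGTCAA and AGTCAA) in the 500 bases before each gene's annotated start. Of 47 members, 27 (57.4%) held at least 1, against 45.2% of 27443 protein-coding genes, and 11 (23.4%) held 2 or more, against 14.9%. A match is a run of letters and was not tested as a binding site. Of the 9 members called lower in *rtnlb16-1* under LD (calls are defined below), 4 (44.4%) held at least 1. Among the 7 called higher, 4 (57.1%) did, and among the 31 not called, 19 (61.3%). *WRKY54* and *WRKY70* held none. The windows below are examples from 4 members whose levels differed between genotypes, with the W-box in capitals. The windows of *WRKY41* and *WRKY53*, a pair of group III, share 27 of 30 bases.
WRKY30 (chr5:8154758-8154787, minus strand): cgttcttcAGTCAAaaAGTCAAactatctc
WRKY41 (chr4:6759008-6759037, plus strand): gtttgctcacttGGTCAAattttcaaacat
WRKY53 (chr4:12394036-12394065, minus strand): gtttggtcatttGGTCAAattttcaaacac
WRKY45 (chr3:327584-327613, minus strand): aagagccaaaatAGTCAAcaatctcaacat

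The libraries held 25954730 to 44747661 assigned reads. *RTNLB16* lay between 640 and 1016 normalized counts in the 6 Col-0 libraries and between 1543 and 12670 in the 6 *rtnlb16-1* libraries, as the labels require. The 4 mesophyll markers were high throughout (mean log2 level of 16.5 to 19.4), and lower in *rtnlb16-1* than in Col-0 within each regime (17.6 to 18.3 against 18.6 to 19.4 under LD, 16.5 to 16.6 against 17.3 to 17.5 under CLL). limma called none of the 4 between genotypes, and edgeR and DESeq2 called 2 lower in each regime. The summed normalized count of the 7 shoot meristem and flower markers moved with the groups. It was 68.6 to 93.3 in Col-0 and 413 to 746.5 in *rtnlb16-1* under LD. Under CLL it was 22.8 to 302.5 in Col-0 and 349 to 428 in *rtnlb16-1*. The sums were made up of different genes. Under LD the Col-0 sum was mostly *AG* (63.3 to 87.8), which had 24.5 to 68.6 in *rtnlb16-1*. In *rtnlb16-1* under LD the largest part was *STM* (169.7 to 426.2). *STM*, *LFY* and *AP1* were at 0 in all 3 Col-0 LD libraries, and Col-0 CLL library 66 stood apart from 65 and 67, with 4 of the 7 at 0. Under LD 4 of the 7 were called higher in *rtnlb16-1* and under CLL 1 was. Of the 2 epidermal markers, *PDF1* had 38.4 to 126.7 in Col-0 and 5859 to 14040 in *rtnlb16-1* under LD, while *ATML1* was not called (1729 to 3110 and 2682 to 3085). Under LD the trichome marker *GL2* was also called higher in *rtnlb16-1* (log2 fold change of 1.93) and *SUC2*, 1 of 2 phloem markers, lower (-1.05, not with 68 and 69 merged), and neither of 2 guard cell markers was called. Their part in the results on WRKY genes was not tested. In *rtnlb16-1* under CLL, libraries 68 and 69 were far closer to each other (mean chi-square of 1.92 per gene) than the libraries of the other 11 pairs within groups (31.05 to 231.2), and counts with both merged into 1 sample are given beside the results.

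In leaf RNA, fewer cells of a type and less RNA per cell cannot be told apart. Levels are given as normalized counts, which are reads divided by a size factor of the library, and a gene is called when the Benjamini-Hochberg adjusted p over all 30388 genes is under 0.01 and the absolute log2 fold change above 1 in limma, after adding 1 to each value and taking log2. When 3 libraries are set against 3, an exact permutation test of a single gene cannot give a p below 0.1, also where the groups do not overlap. Strand-specific counting is not stated, and 9 members overlap a gene on the opposite strand (*WRKY1*, *WRKY2*, *WRKY4*, *WRKY29*, *WRKY33*, *WRKY40*, *WRKY41*, *WRKY53* and *WRKY69*). By the study's methods, reads that fit more than 1 feature were not counted. Reads of these members in an overlap could therefore be lost, or reads be misassigned, and this was not tested.

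**Figure D1:**
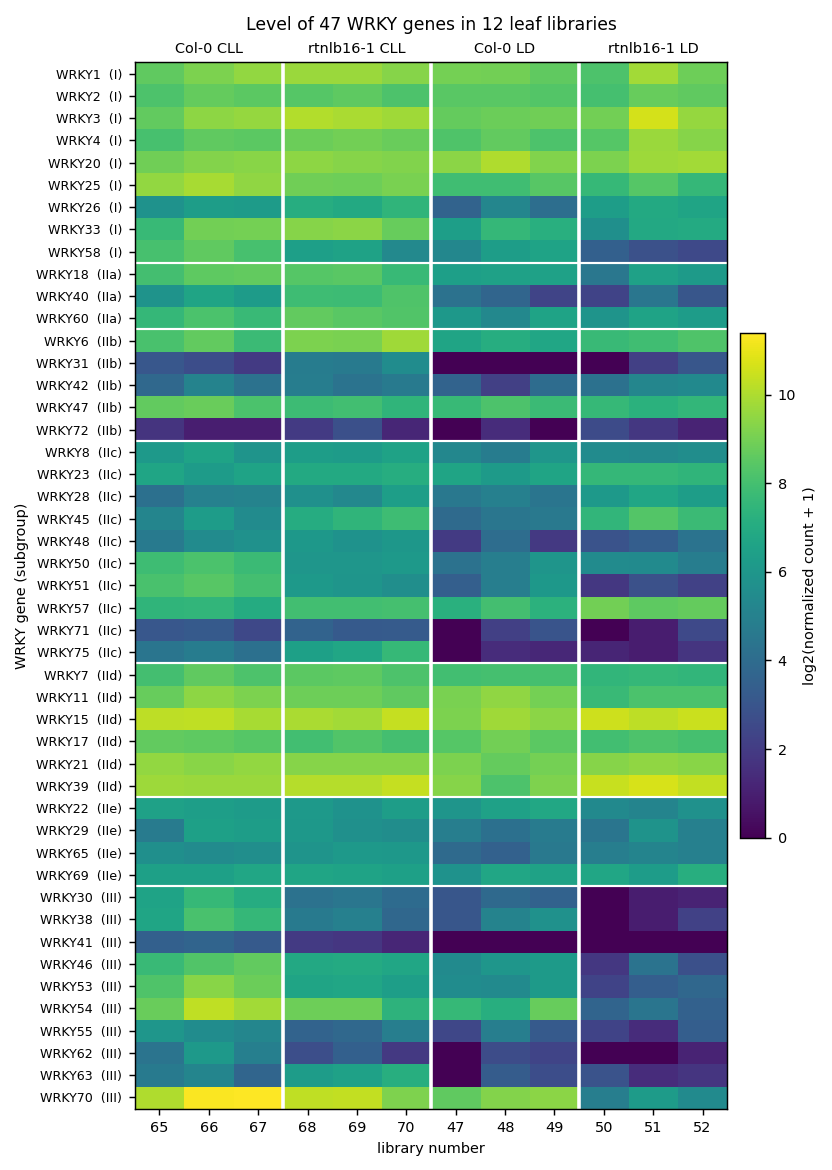
Level of each of the 47 WRKY genes (rows, by subgroup) in each of the 12 libraries (columns, 3 per group), as log2(normalized count + 1) by colour. All 6 genes of group IId had at least 180.6 normalized counts in each library, while group III ran from *WRKY70*, with 2675 in Col-0 CLL library 67, down to *WRKY41*, at 0 in all 6 LD libraries.

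Per kilobase of exon, the highest levels in Col-0 under LD belonged to *WRKY15* (550.5 normalized counts per kb), *WRKY70* (385) and *WRKY11* (324). In *rtnlb16-1* under LD the order was *WRKY15* (1078), *WRKY39* (642) and *WRKY3* (436), and *WRKY70* stood at 33.3. Under CLL *WRKY70* led in Col-0 (1423), ahead of *WRKY15* (890) and *WRKY54* (601), whereas in *rtnlb16-1* the leading 3 were *WRKY15* (833), *WRKY70* (710) and *WRKY39* (532). The orders are of group means, and neighbours overlap in part: in Col-0 under CLL, *WRKY70* had 1046, 2555 and 2675 normalized counts and *WRKY15* 1227, 1256 and 946. At the other end, *WRKY41*, *WRKY71* and *WRKY72* stayed at or below 11.9 normalized counts in every library. The number of members at 0 was 1 to 7 in the LD libraries and 0 in each CLL library.

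Under LD, 7 members were called higher in *rtnlb16-1* and 9 lower, or 16 of 47. Over all genes tested, 6% were called higher and 5.41% lower, 11.4% in all. The 7 higher were *WRKY6*, *WRKY23*, *WRKY26*, *WRKY28*, *WRKY39*, *WRKY45* and *WRKY57*. The 9 lower were *WRKY11*, *WRKY30*, *WRKY38*, *WRKY46*, *WRKY51*, *WRKY53*, *WRKY54*, *WRKY58* and *WRKY70*, and 6 of these are among the 10 members of group III. Group III had a median log2 fold change of -2.69, group IIc of 0.64 with 4 called higher and 1 lower, and all 47 members of 0.04, beside 0.00 over all genes. The mean log2 level of the 7 shoot meristem and flower markers was higher in the same *rtnlb16-1* libraries. It was 4.46 to 5.41 there and 1.24 to 1.47 in Col-0. Of the 7, *AG* went the other way (mean of 50.1 against 71.8 in Col-0) and *CLV3* was nearly level (2.98 against 2.71). *PDF1* was also higher in *rtnlb16-1*, and the 4 mesophyll markers had a median log2 fold change of -1.02. With libraries 68 and 69 merged, 4 were higher and 8 lower (4.89% and 4.43% of all genes). The number called higher was 4 without Col-0 library 47 or 49 or *rtnlb16-1* library 51 and 3 without *rtnlb16-1* library 52, and the number called lower was 6 without library 49 or 50.

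Under CLL, 3 members were called lower in *rtnlb16-1*, *WRKY30*, *WRKY41* and *WRKY53*, and none higher, where 0.836% of all genes were called higher and 0.711% lower, 1.55% in all. All 3 belong to group III, whose median log2 fold change was -1.63, against 0.15 for the 47 members and 0.03 over all genes. The mean log2 level of the shoot meristem and flower markers was 4.46 to 4.74 in *rtnlb16-1* and 1.096 to 3.41 in Col-0 here, and the mesophyll markers had a median log2 fold change of -0.90. At an unadjusted limma p under 0.01 and the same fold minimum, 5 members were higher and 8 lower (885 and 676 of all genes). The count models called more members: edgeR on the recovered reads called 6 higher and 9 lower (2.03% and 1.94% of all genes) and DESeq2 6 and 8 (1.58% and 1.81%). The 6 higher in edgeR were *WRKY6*, *WRKY31*, *WRKY40*, *WRKY45*, *WRKY63* and *WRKY75*, and the 9 lower were *WRKY30*, *WRKY38*, *WRKY46*, *WRKY50*, *WRKY51*, *WRKY53*, *WRKY54*, *WRKY58* and *WRKY62*. None of the 3 limma calls held with libraries 68 and 69 merged, where 0.852% of all genes were called, and the number was 0 without Col-0 library 65 or 66 and 1 without library 67, 68, 69 or 70.

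**Figure D2:**
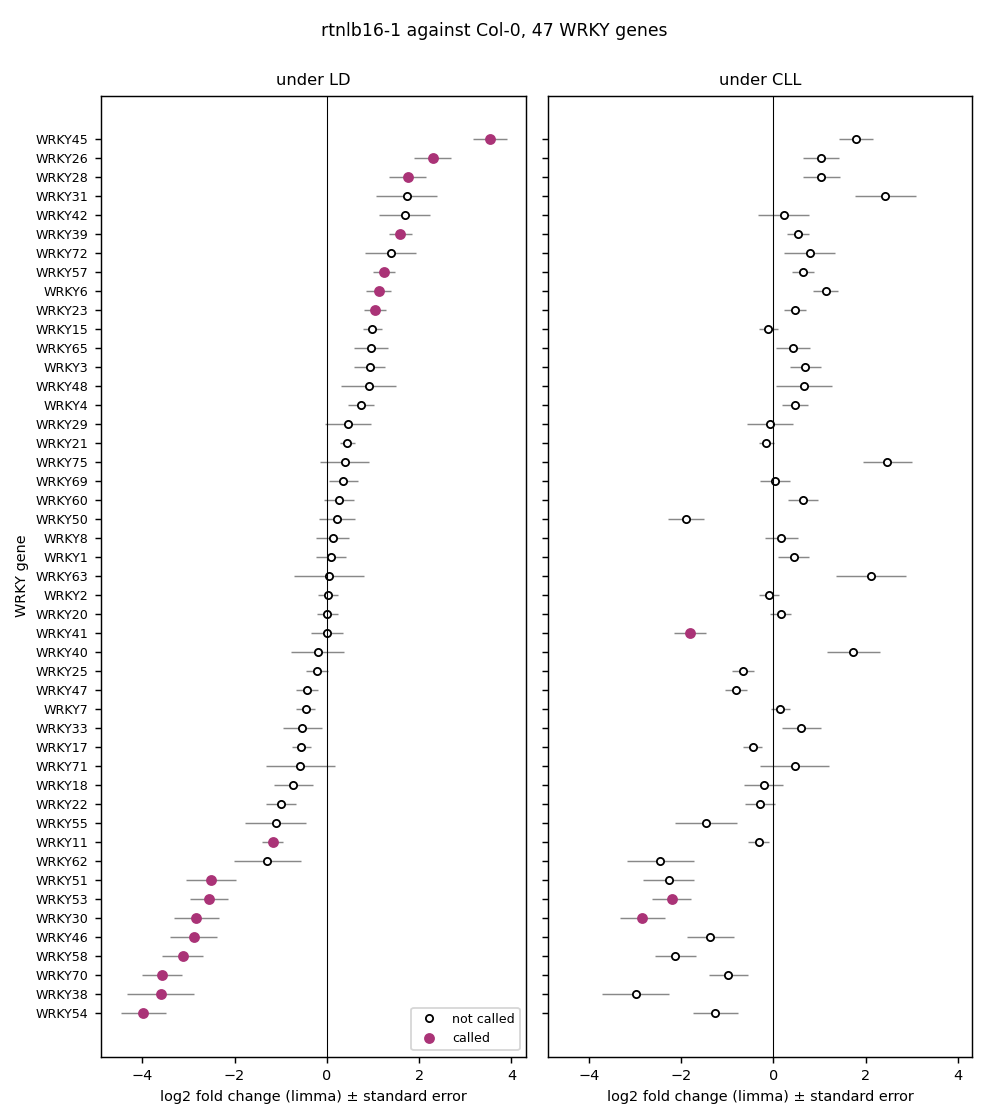
Log2 fold change of *rtnlb16-1* against Col-0 from limma (points) with its standard error (lines) for the 47 WRKY genes under LD (left) and CLL (right), ordered by the LD value; filled points were called. The values ran from -3.97 (*WRKY54*) to 3.53 (*WRKY45*) under LD and from -2.98 (*WRKY38*) to 2.47 (*WRKY75*) under CLL.

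Between light regimes, every called WRKY gene was lower under LD than under CLL. In Col-0 these were 16 of 47, where 3.83% of all genes were called lower, and in *rtnlb16-1* 18 of 47, where 3.28% were. The median log2 fold change of the members was -1.36 in Col-0 and -0.91 in *rtnlb16-1*, beside -0.05 and -0.09 over all genes. The mean log2 level of the 4 mesophyll markers was higher in the LD libraries (17.6 to 19.4) than in the CLL libraries (16.5 to 17.5). Of the 4, limma called 1 higher under LD in Col-0 and 2 in *rtnlb16-1* (1 and 0 with 68 and 69 merged). The part of these markers in the WRKY values was not tested. Both lists held *WRKY6*, *WRKY18*, *WRKY25*, *WRKY30*, *WRKY40*, *WRKY41*, *WRKY46*, *WRKY51*, *WRKY53*, *WRKY58*, *WRKY60* and *WRKY75*, which are 75% of the Col-0 list and 66.7% of the *rtnlb16-1* list. *WRKY26*, *WRKY48*, *WRKY50* and *WRKY62* were called in Col-0, and *WRKY31*, *WRKY33*, *WRKY38*, *WRKY54*, *WRKY63* and *WRKY70* in *rtnlb16-1*, without a call in the other genotype. All 3 members of group IIa were called in both genotypes, and none of the 10 members of groups IId and IIe in either.

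These light counts depended on the libraries. With libraries 68 and 69 merged, 8 members were called in Col-0 (2.73% of all genes were lower) and 10 in *rtnlb16-1* (1.67%). Leaving out 1 library gave 6 to 10 in Col-0 for each library except *rtnlb16-1* libraries 50 and 51, with 14 and 11, and in *rtnlb16-1* 8 without library 68, 9 without 69, 10 without 70, 11 without 50 and 12 to 16 without the others. The calls kept without any 1 library were *WRKY25*, *WRKY30*, *WRKY41*, *WRKY50*, *WRKY53* and *WRKY75* in Col-0 and *WRKY30*, *WRKY40*, *WRKY46*, *WRKY53*, *WRKY54*, *WRKY70* and *WRKY75* in *rtnlb16-1*.

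**Figure D3:**
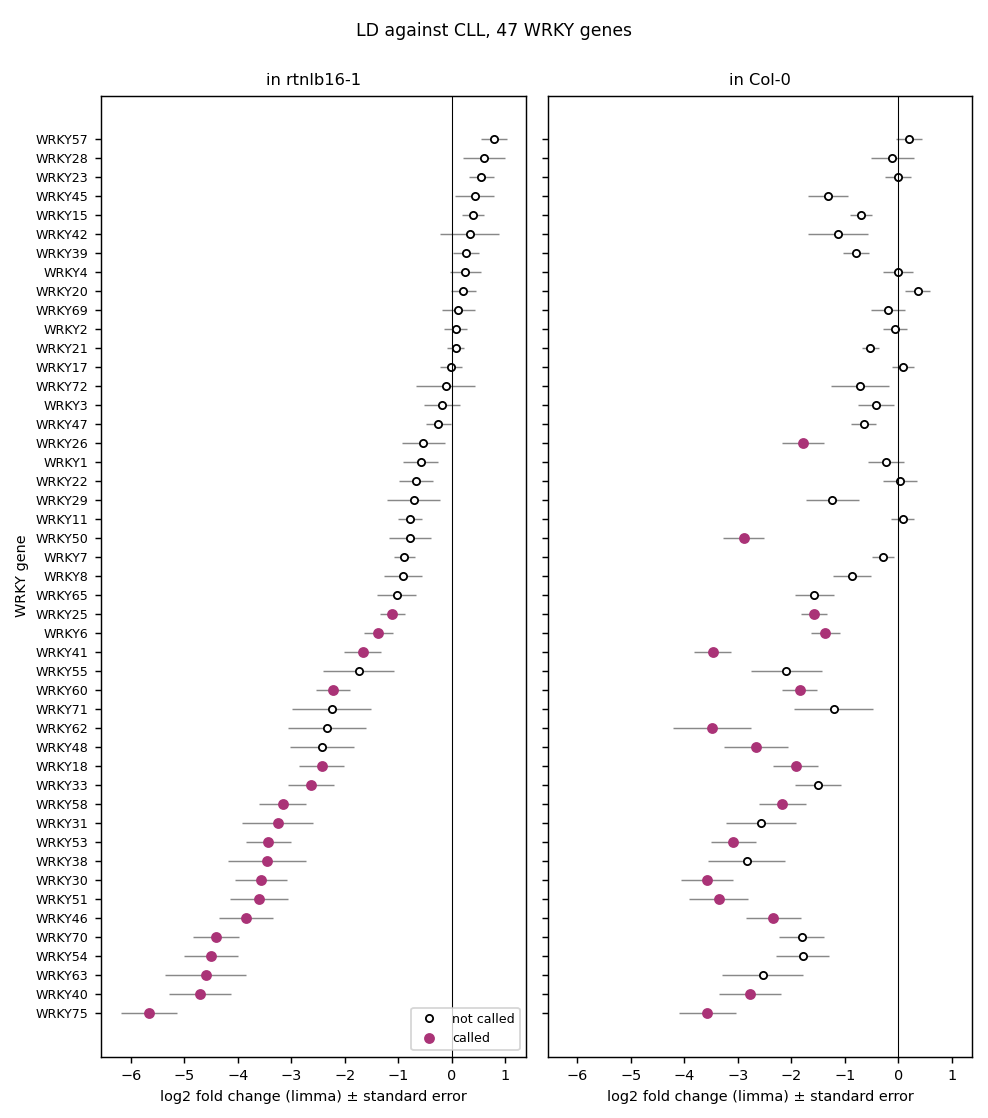
Log2 fold change of LD against CLL from limma (points) with its standard error (lines) for the 47 WRKY genes in *rtnlb16-1* (left) and Col-0 (right), ordered by the *rtnlb16-1* value; filled points were called. All filled points lie below 0, down to -5.66 for *WRKY75* in *rtnlb16-1* and -3.58 for *WRKY30* and *WRKY75* in Col-0.

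Among the group III genes, *WRKY70* and *WRKY54* encode related SA-responsive factors that repress leaf senescence and SA synthesis. *WRKY70* (AT3G56400, chr3:20908711-20910623) had 385, 626 and 687 normalized counts in Col-0 under LD, 28.4, 75.6 and 42.9 in *rtnlb16-1* under LD, 1046, 2555 and 2675 in Col-0 under CLL, and 1263, 1289 and 579.5 in *rtnlb16-1* under CLL. The 3 *rtnlb16-1* LD libraries lay far below all others, and the genotypes overlapped under CLL. Under LD the mean was 11.6-fold lower in *rtnlb16-1* (log2 fold change of -3.57, standard error 0.43, limma adjusted p = 4.17e-05), and under CLL the log2 fold change was -0.97 (limma adjusted p = 0.248).

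*WRKY54* (AT2G40750, chr2:17000419-17002528) repeated this order. It had 199, 139 and 432 normalized counts in Col-0 under LD, 11.6, 20.2 and 10.7 in *rtnlb16-1* under LD, 439.8, 1238 and 904 in Col-0 under CLL, and 464, 469 and 166 in *rtnlb16-1* under CLL. Again the *rtnlb16-1* LD libraries were the lowest without overlap, and the CLL libraries of the genotypes overlapped. The LD mean was 18.1-fold lower in *rtnlb16-1* (log2 fold change of -3.97, standard error 0.50, limma adjusted p = 6.21e-05), and the CLL log2 fold change was -1.25 (limma adjusted p = 0.204). From CLL to LD in *rtnlb16-1* the pair fell 25.8-fold (*WRKY54*) and 21.3-fold (*WRKY70*), with log2 fold changes of -4.50 and -4.41 (limma adjusted p = 5.30e-05 and 1.71e-05). In Col-0 the log2 fold changes were -1.78 and -1.81 (limma adjusted p = 0.0282 and 0.0115), short of the threshold, although edgeR called both. The LD genotype calls and the *rtnlb16-1* light calls of both genes held without any 1 library and with 68 and 69 merged. *WRKY55*, the neighbour of *WRKY54* on chromosome 2, was low (1.76 to 62.9 in the 12 libraries) and was not called by limma in any comparison.

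*WRKY53*, a regulator that promotes leaf senescence, and *WRKY46*, which acts with *WRKY53* and *WRKY70* in basal resistance, lay lower in all *rtnlb16-1* libraries than in those of Col-0 within each light regime. *WRKY53* (AT4G23810, chr4:12392370-12393982) had 45.8, 42.2 and 72.7 normalized counts in Col-0 under LD, 3.87, 9.67 and 13.1 in *rtnlb16-1* under LD, 307, 653 and 450.0 in Col-0 under CLL, and 100.4, 106.8 and 83.7 in *rtnlb16-1* under CLL. No 2 of its 4 groups overlapped, with Col-0 under CLL the highest. The genotype difference was 6.03-fold under LD (log2 fold change of -2.56, standard error 0.42, limma adjusted p = 0.000547) and 4.85-fold under CLL (-2.21, standard error 0.42, limma adjusted p = 0.00809). Unlike the LD call, the CLL call was lost without any 1 library except 50, with adjusted p of up to 0.0782 over the alternatives. Between light regimes it was 8.78-fold lower under LD in Col-0 and 10.9-fold lower in *rtnlb16-1* (log2 fold changes of -3.08 and -3.43, limma adjusted p = 0.000283 and 0.000115).

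*WRKY46* (AT2G46400, chr2:19043411-19044955) had 42.9, 61.6 and 72.7 normalized counts in Col-0 under LD, 2.58, 19.3 and 5.95 in *rtnlb16-1* under LD, 207, 312 and 400.1 in Col-0 under CLL, and 115, 122 and 107 in *rtnlb16-1* under CLL. The 4 groups did not overlap here either. Under LD it was 6.36-fold lower in *rtnlb16-1* (log2 fold change of -2.88, standard error 0.51, limma adjusted p = 0.000954), which did not hold without library 49 or 52 (adjusted p of up to 0.0937 over the alternatives). Under CLL the mean ratio was 2.68 and the log2 fold change -1.36 (limma adjusted p = 0.174), which edgeR called (adjusted p = 0.0019). LD against CLL gave -2.34 in Col-0, lost without any 1 of 10 libraries (all but 50 and 51) and with 68 and 69 merged, and -3.85 in *rtnlb16-1*, which held (limma adjusted p = 0.00722 and 0.000224).

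*WRKY30* and *WRKY41* are induced by stress and by bacterial flagellin respectively. *WRKY30* (AT5G24110, chr5:8153115-8154710), whose upstream window with a pair of W-boxes is printed above, had 7.15, 14.1 and 10.97 normalized counts in Col-0 under LD, 0, 0.879 and 1.19 in *rtnlb16-1* under LD, 95.8, 198 and 130.3 in Col-0 under CLL, and 18.6, 21.03 and 14.8 in *rtnlb16-1* under CLL. It was highest in Col-0 under CLL and nearly without reads in *rtnlb16-1* under LD. The *rtnlb16-1* mean was 7.78-fold lower under CLL (log2 fold change of -2.84, standard error 0.49, limma adjusted p = 0.00403). Under LD only 2 reads stood against 21, a ratio of 14.5 with a 95% counting interval of 3.54 to 127.3 (log2 fold change of -2.83, limma adjusted p = 0.000798). The CLL call did not hold without any 1 of libraries 65 to 70 (adjusted p of up to 0.0242 over the alternatives), while the LD call held without any 1 library. Between light regimes the log2 fold change was -3.58 in Col-0 and -3.57 in *rtnlb16-1* (limma adjusted p = 0.000283 and 0.00029), and both calls held.

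*WRKY41* (AT4G11070, chr4:6759098-6760794) was at 0 in all 6 LD libraries and had 10.4, 11.9 and 8.32 normalized counts in Col-0 under CLL and 2.87, 2.52 and 1.35 in *rtnlb16-1* under CLL. It was the member with the lowest levels among those called. Its CLL mean was 4.54-fold lower in *rtnlb16-1*, from 9 reads against 40 with a 95% counting interval of 2.21 to 10.8 (log2 fold change of -1.81, standard error 0.34, limma adjusted p = 0.00813), but edgeR gave an adjusted p of 0.138 and the call was lost without library 65 or 66. In Col-0 it was at least 2.24-fold lower under LD, with 3 reads per library as the limit that a count of 0 allows. In *rtnlb16-1* the CLL level was below the limit for LD, so no ratio is given beside its limma call, which edgeR did not make (adjusted p = 0.0754) and which was lost without library 50 or 52 and with 68 and 69 merged.

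*WRKY38* and *WRKY62* encode related negative regulators of basal defence that interact with a histone deacetylase. *WRKY38* (AT5G22570, chr5:7495455-7496990) had 7.15, 33.4 and 53.5 normalized counts in Col-0 under LD, 0, 0.879 and 3.57 in *rtnlb16-1* under LD, 104, 273 and 193 in Col-0 under CLL, and 25.1, 30.3 and 12.8 in *rtnlb16-1* under CLL. The genotypes did not overlap in either regime. The LD ratio was 21.1 (63 reads against 4, a 95% counting interval of 8.07 to 82.1) with a log2 fold change of -3.60 (standard error 0.72, limma adjusted p = 0.00247), lost without any 1 of 10 libraries (all but 47 and 52, adjusted p of up to 0.107 over the alternatives). Under CLL the 8.36-fold difference missed the threshold in limma (log2 fold change of -2.98, adjusted p = 0.0321) and passed in edgeR (adjusted p = 3.57e-08). In *rtnlb16-1* the light regimes differed by -3.45 (limma adjusted p = 0.00618), lost without any 1 library except 47 and with 68 and 69 merged.

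*WRKY62* (AT5G01900, chr5:350925-352095) had 0, 5.28 and 4.11 normalized counts in Col-0 under LD, 0, 0 and 1.19 in *rtnlb16-1* under LD, 19.6, 70.3 and 29.6 in Col-0 under CLL, and 5.74, 10.1 and 2.70 in *rtnlb16-1* under CLL. Like *WRKY38*, it had its highest values in Col-0 under CLL. Its call was that between light regimes in Col-0, 12.7-fold lower under LD from 6 reads against 143, with a 95% counting interval of 5.46 to 33.7 (log2 fold change of -3.48, standard error 0.73, limma adjusted p = 0.00574). It was lost without any 1 of the 12 libraries and with 68 and 69 merged (adjusted p of up to 0.129 over the alternatives). Under CLL the genotype log2 fold change was -2.45 (limma adjusted p = 0.0837), called by edgeR (adjusted p = 0.000996).

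*WRKY63*, known for its part in the ABA and drought response, was the 1 gene of group III with a positive genotype value under CLL. *WRKY63* (AT1G66600, chr1:24848320-24849543) had 0, 8.80 and 5.49 normalized counts in Col-0 under LD, 6.45, 1.76 and 2.38 in *rtnlb16-1* under LD, 24.8, 35.6 and 12.01 in Col-0 under CLL, and 76.7, 89.2 and 140.3 in *rtnlb16-1* under CLL. The CLL libraries of *rtnlb16-1* stood above all others. The CLL genotype ratio was 4.23 (log2 fold change of 2.11, standard error 0.76, limma adjusted p = 0.154, edgeR 0.000369). In *rtnlb16-1* it was 28.9-fold lower under LD, from 9 reads against 421 with a 95% counting interval of 16.5 to 69.7 (log2 fold change of -4.60, standard error 0.76, limma adjusted p = 0.0012), a call lost without library 51, 52, 68, 69 or 70 and with 68 and 69 merged (adjusted p of 0.0102).

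**Figure D4:**
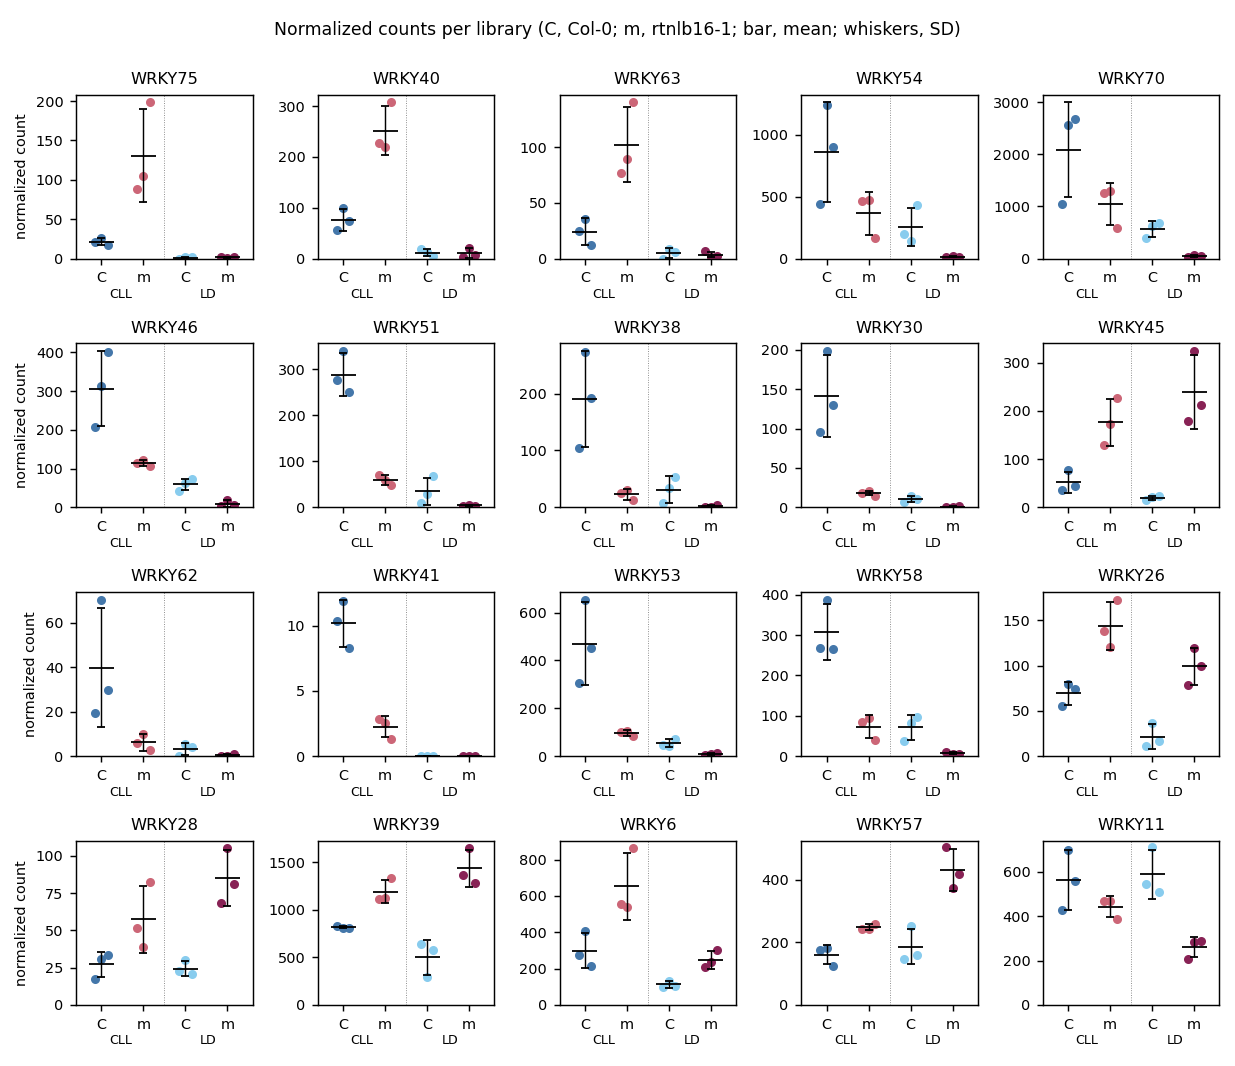
Normalized counts (linear axes from 0) of the 20 WRKY genes described in full, in Col-0 (C) and *rtnlb16-1* (m) under CLL (left of the dotted line) and LD (right). Points are the 3 libraries of a group, bars the mean and whiskers the SD. *WRKY70*, *WRKY54*, *WRKY53* and *WRKY46* are lowest in *rtnlb16-1* under LD, *WRKY45* is higher in *rtnlb16-1* in both regimes, and *WRKY75*, *WRKY40* and *WRKY63* are highest in *rtnlb16-1* under CLL.

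Group IIa holds *WRKY18*, *WRKY40* and *WRKY60*, pathogen-induced factors that interact with each other and act in basal defence and ABA signalling. *WRKY40* (AT1G80840, chr1:30383561-30385499) had 18.6, 12.3 and 4.11 normalized counts in Col-0 under LD, 3.87, 21.1 and 7.14 in *rtnlb16-1* under LD, 56.0, 98.6 and 73.9 in Col-0 under CLL, and 228, 219.6 and 307.6 in *rtnlb16-1* under CLL. The genotypes overlapped under LD and were apart under CLL. The CLL ratio was 3.30 (log2 fold change of 1.73, standard error 0.58, limma adjusted p = 0.123, edgeR 0.000239). Under LD it was 6.53-fold lower than under CLL in Col-0 and 23.5-fold lower in *rtnlb16-1* (log2 fold changes of -2.77 and -4.71, limma adjusted p = 0.00545 and 0.00012). The Col-0 call was lost without any 1 of 9 libraries (48, 49, 52 and 65 to 70) and with 68 and 69 merged, with adjusted p of up to 0.0873 over the alternatives, and the *rtnlb16-1* call held.

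*WRKY18* and *WRKY60* moved with light and were not called between genotypes. *WRKY18* lay between 84.4 and 90.5 normalized counts in Col-0 under LD and 253 and 395.5 under CLL, and in *rtnlb16-1* between 21.9 and 89.7 under LD and 205 and 353 under CLL, so that the light regimes did not overlap. Its log2 fold change of LD against CLL was -1.92 in Col-0 and -2.43 in *rtnlb16-1* (limma adjusted p = 0.00779 and 0.00176). Both calls were lost with 68 and 69 merged (adjusted p of 0.0195 and 0.0193), and without any 1 of 11 libraries (all but 50) in Col-0 and of 7 (52 and 65 to 70) in *rtnlb16-1*. For *WRKY60* the values were -1.85 and -2.22 (limma adjusted p = 0.00174 and 0.000472). These held with the libraries merged and were lost without any 1 of libraries 65 to 70 in Col-0 and without 68 or 69 in *rtnlb16-1* (adjusted p of up to 0.0834 and 0.0121 over the alternatives).

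In group IIc, *WRKY45* and *WRKY75* encode close relatives that act in phosphate uptake and promote leaf senescence. *WRKY45* (AT3G01970, chr3:325952-327412) had 14.3, 21.1 and 23.3 normalized counts in Col-0 under LD, 179, 324 and 213 in *rtnlb16-1* under LD, 35.2, 76.7 and 44.4 in Col-0 under CLL, and 129.8, 173 and 227 in *rtnlb16-1* under CLL. In both regimes the *rtnlb16-1* libraries were all higher than those of Col-0. Under LD the mean was 12.2-fold higher (log2 fold change of 3.53, standard error 0.37, limma adjusted p = 1.38e-05), which held without any 1 library and with 68 and 69 merged. Under CLL it was 3.39-fold higher (1.78, limma adjusted p = 0.0139, edgeR 4.35e-05).

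*WRKY75* (AT5G13080, chr5:4149738-4151201) had 0, 1.76 and 1.37 normalized counts in Col-0 under LD, 1.29, 0.879 and 2.38 in *rtnlb16-1* under LD, 20.8, 26.5 and 17.6 in Col-0 under CLL, and 88.2, 105.2 and 198 in *rtnlb16-1* under CLL. In contrast to *WRKY45*, it was near 0 in both genotypes under LD. In *rtnlb16-1* 4 LD reads stood against 542 under CLL, an 86.1-fold lower mean with a 95% counting interval of 35.6 to 337.9 and the lowest fitted light value of the 47 members (log2 fold change of -5.66, standard error 0.53, limma adjusted p = 1.33e-05). In Col-0 few LD reads gave a ratio of 21.4 with a 95% counting interval of 5.76 to 180.0 (log2 fold change of -3.58, limma adjusted p = 0.000554). The CLL genotype ratio was 6.04 (log2 fold change of 2.47, limma adjusted p = 0.0172, edgeR 1.37e-06).

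*WRKY50* and *WRKY51*, the members with the AAG codon, act together as repressors of jasmonate signalling. *WRKY51* (AT5G64810, chr5:25908247-25909881) had 10.01, 28.1 and 67.2 normalized counts in Col-0 under LD, 2.58, 6.15 and 3.57 in *rtnlb16-1* under LD, 276, 339.7 and 250.4 in Col-0 under CLL, and 70.3, 59.7 and 47.9 in *rtnlb16-1* under CLL. The genotypes were apart in both regimes. Under LD it was 8.56-fold lower in *rtnlb16-1* (log2 fold change of -2.52, standard error 0.54, limma adjusted p = 0.0041), lost without any 1 library except 47 and with 68 and 69 merged (adjusted p of 0.0107). Under CLL the ratio was 4.87 (log2 fold change of -2.27, limma adjusted p = 0.0305, edgeR 1.02e-06). LD against CLL gave log2 fold changes of -3.36 (Col-0) and -3.61 (*rtnlb16-1*), with limma adjusted p = 0.00103 and 0.000633, calls that were lost without any 1 of libraries 65 to 70 and without 50, 68, 69 or 70. *WRKY50* shared the CLL difference, with 214 to 286 normalized counts in Col-0 and 62.3 to 68.1 in *rtnlb16-1* (log2 fold change of -1.89, limma adjusted p = 0.0134). Under LD its genotypes overlapped, with 18.6 to 60.3 in Col-0 and 27.4 to 43.9 in *rtnlb16-1* (0.22, limma adjusted p = 0.806). In Col-0 it was 6.84-fold lower under LD than under CLL (log2 fold change of -2.89, limma adjusted p = 0.000274), a call that held.

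*WRKY57*, *WRKY28* and *WRKY23* were the other IIc members higher in *rtnlb16-1* under LD. *WRKY57* (AT1G69310, chr1:26054275-26058383), known for drought tolerance and as a repressor of senescence, had 147, 251.5 and 160.5 normalized counts in Col-0 under LD, 504.5, 372 and 417 in *rtnlb16-1* under LD, 175, 181 and 126 in Col-0 under CLL, and 242, 244 and 259 in *rtnlb16-1* under CLL. *WRKY28* (AT4G18170, chr4:10061214-10062893), a factor linked to SA synthesis, had 22.9, 29.9 and 20.6 in Col-0 under LD, 68.4, 105.5 and 81.0 in *rtnlb16-1* under LD, 17.3, 31.04 and 33.3 in Col-0 under CLL, and 51.6, 38.7 and 82.3 in *rtnlb16-1* under CLL. In both genes the genotypes were apart in both regimes. The LD means were 2.31-fold (*WRKY57*) and 3.47-fold (*WRKY28*) higher in *rtnlb16-1*, with log2 fold changes of 1.23 and 1.75 (standard errors 0.24 and 0.40, limma adjusted p = 0.0021 and 0.00573). The first call was lost without library 47, 49, 50 or 52 and the other without 47, 49, 50, 51, 52 or 68 and with 68 and 69 merged, with adjusted p of up to 0.0587 and 0.0303 over the alternatives. *WRKY23*, a gene of auxin-dependent root development, had 73.9 to 98.7 normalized counts in Col-0 and 174 to 192 in *rtnlb16-1* under LD (log2 fold change of 1.04, limma adjusted p = 0.00635, lost without library 48, 50, 51 or 52 and with 68 and 69 merged, and missed by edgeR with an adjusted p of 0.0104). *WRKY48*, a negative regulator of basal resistance, had 2.74 to 15.8 under LD and 24.2 to 53.6 under CLL in Col-0 (log2 fold change of -2.66, limma adjusted p = 0.00911, lost without any 1 library except 48 and with 68 and 69 merged). The remaining IIc members, *WRKY8* and *WRKY71*, were not called in any comparison.

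In group I, which has a pair of WRKY domains, *WRKY26* and *WRKY58* moved in opposite directions. *WRKY26* (AT5G07100, chr5:2204206-2205965), which takes part in heat tolerance with *WRKY25* and *WRKY33*, had 11.4, 36.9 and 16.5 normalized counts in Col-0 under LD, 78.7, 119.6 and 100 in *rtnlb16-1* under LD, 54.8, 79.4 and 73.9 in Col-0 under CLL, and 137.7, 120.3 and 172.7 in *rtnlb16-1* under CLL. *WRKY58* (AT3G01080, chr3:25355-27712), a repressor of systemic acquired resistance, had 37.2, 80.9 and 97.4 in Col-0 under LD, 10.3, 6.15 and 4.76 in *rtnlb16-1* under LD, 269, 387 and 266 in Col-0 under CLL, and 83.9, 94.2 and 40.5 in *rtnlb16-1* under CLL. Neither gene overlapped between genotypes in either regime. Under LD *WRKY26* was 4.60-fold higher in *rtnlb16-1* (log2 fold change of 2.29, standard error 0.39, limma adjusted p = 0.000785) and *WRKY58* 10.2-fold lower (-3.12, standard error 0.44, limma adjusted p = 0.000181), and both calls held without any 1 library and with 68 and 69 merged. Under CLL the log2 fold changes were 1.04 (limma adjusted p = 0.181) and -2.13 (limma adjusted p = 0.0147, edgeR 2.47e-06). Between light regimes *WRKY26* was called in Col-0 (-1.78, limma adjusted p = 0.00788, lost without any 1 library except 48 and with 68 and 69 merged). *WRKY58* was called in Col-0 (-2.17, limma adjusted p = 0.00504, lost without any 1 library except 50 and with 68 and 69 merged) and in *rtnlb16-1* (-3.16, limma adjusted p = 0.000369, lost without library 68).

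*WRKY25* and *WRKY33* differed mainly with light. *WRKY33*, the activator of the camalexin gene *PAD3*, had 83.0 to 190.0 normalized counts under LD and 200.3 to 513.7 under CLL in Col-0 and 50.3 to 125.0 and 426 to 669.6 in *rtnlb16-1*. Its log2 fold change of LD against CLL was -2.64 in *rtnlb16-1* (limma adjusted p = 0.00107, lost without library 50, 68, 69 or 70 and with 68 and 69 merged) and -1.50 in Col-0 (limma adjusted p = 0.0317, called by edgeR). *WRKY25* had -1.57 in Col-0 and -1.11 in *rtnlb16-1* (limma adjusted p = 0.000672 and 0.00742), and the latter was lost without any 1 of 10 libraries (all but 49 and 51) and with 68 and 69 merged. The other group I genes, *WRKY1*, *WRKY2*, *WRKY3*, *WRKY4* and *WRKY20*, stayed between 259 and 1598 normalized counts and were not called in any comparison.

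*WRKY6*, a IIb gene of senescence and phosphate homeostasis, was higher in *rtnlb16-1* and lower under LD. *WRKY6* (AT1G62300, chr1:23016569-23019494) had 98.7, 133.7 and 107.0 normalized counts in Col-0 under LD, 206, 236 and 305 in *rtnlb16-1* under LD, 276.5, 405 and 217 in Col-0 under CLL, and 555, 540.1 and 864 in *rtnlb16-1* under CLL. The genotypes were apart in both regimes. The ratio was 2.20 under LD (log2 fold change of 1.12, standard error 0.27, limma adjusted p = 0.00801) and 2.18 under CLL (1.13, limma adjusted p = 0.0298, edgeR 0.00158). The LD call was lost without any 1 library except 66 and with 68 and 69 merged (adjusted p of 0.0157). The light log2 fold changes were -1.36 in Col-0 and -1.37 in *rtnlb16-1* (limma adjusted p = 0.00416 and 0.00421), and both were lost with 68 and 69 merged, the first also without library 47, 48, 49, 51, 65, 66, 68, 69 or 70 and the other without 50, 51, 52, 65, 68, 69 or 70. *WRKY31* had no reads in Col-0 under LD and at most 45.2 normalized counts elsewhere, and it was lower under LD in *rtnlb16-1* by 9.02-fold (log2 fold change of -3.26, limma adjusted p = 0.00489), which did not hold without any 1 library except 52 and with 68 and 69 merged. *WRKY42*, *WRKY47* and *WRKY72* were not called in any comparison.

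Groups IId and IIe had no limma call between light regimes. The IIe gene *WRKY65* fell just short in Col-0, with 10.6 to 23.3 normalized counts under LD and 43.8 to 49.6 under CLL (log2 fold change of -1.57, limma adjusted p = 0.0108). *WRKY39* (AT3G04670, chr3:1266056-1268378), a IId gene of the heat response, had 636, 290.2 and 575 normalized counts in Col-0 under LD, 1372, 1656 and 1286 in *rtnlb16-1* under LD, 835, 809 and 812 in Col-0 under CLL, and 1119, 1127 and 1333 in *rtnlb16-1* under CLL. *WRKY11* (AT4G31550, chr4:15289788-15291934), a IId repressor of basal resistance to *Pseudomonas*, had 543.5, 714 and 509 in Col-0 under LD, 209, 285 and 287 in *rtnlb16-1* under LD, 429, 699 and 559 in Col-0 under CLL, and 469.6, 470.3 and 389.9 in *rtnlb16-1* under CLL. *WRKY39* was thus above Col-0 in every *rtnlb16-1* library, while *WRKY11* was apart under LD and overlapped under CLL. Under LD *WRKY39* was 2.87-fold higher in *rtnlb16-1* (log2 fold change of 1.59, standard error 0.24, limma adjusted p = 0.000325), which held without any 1 library. *WRKY11* was 2.26-fold lower (-1.17, standard error 0.22, limma adjusted p = 0.00157), which was lost without library 50 (adjusted p of up to 0.0376 over the alternatives). Its partner *WRKY17* was not called (limma log2 fold change of -0.55 under LD). *WRKY15* had a limma adjusted p of 0.0033 under LD with a log2 fold change of 0.98, just under the minimum. *WRKY7* and *WRKY21* of group IId and the IIe genes *WRKY22*, *WRKY29*, *WRKY65* and *WRKY69* were not called in any comparison.

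Whether the genotype difference itself depended on light was tested as the interaction (the LD log2 fold change minus that under CLL). No member was called by limma, where 0.928% of all genes were. At an unadjusted limma p under 0.01 and the same fold minimum, 5 were higher and 2 lower (980 and 980 of all genes). By edgeR 3 members were called (3.97% of all genes), as by DESeq2 (3.52%). They were *WRKY50*, *WRKY54* and *WRKY70*, with adjusted p of 0.0543, 0.0521 and 0.0318 from limma.

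The partners and targets of WRKY factors were taken from a list of 24 genes. Of the 10 kinases and partners, which include the MAP kinases *MPK3*, *MPK4* and *MPK6*, 9 were tested, since *SIB2* had no reads. In this set 1 was called between genotypes under LD (11.4% of all genes), *JAV1*, a repressor of jasmonate responses that interacts with WRKY proteins, which had 54.4 to 82.3 normalized counts in Col-0 and 206 to 249 in *rtnlb16-1* (log2 fold change of 1.78, limma adjusted p = 0.000125). *JAV1* was also lower under LD in Col-0 (-1.74, limma adjusted p = 0.000349), and limma called no gene of the set between genotypes under CLL or between light regimes in *rtnlb16-1*.

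Among the 14 targets, 1 was higher and 2 lower under LD and 2 were lower under CLL in *rtnlb16-1*, where the shares of all genes were 6% and 5.41% under LD and 0.711% lower under CLL. *PR1*, the SA marker, had 120.1, 278 and 1550 normalized counts in Col-0 under LD, 1.29, 14.1 and 2.38 in *rtnlb16-1* under LD, 8283, 12350 and 10590 in Col-0 under CLL, and 713, 682 and 239 in *rtnlb16-1* under CLL. It was highest in Col-0 under CLL and lowest in *rtnlb16-1* under LD, and the genotypes did not overlap within either regime. Its genotype log2 fold change was -6.26 under LD and -4.39 under CLL (limma adjusted p = 7.24e-05 and 0.00602). *ICS1*, the SA synthesis gene, was lower in *rtnlb16-1* under CLL (-1.42, limma adjusted p = 0.000553), *EDS1*, a defence regulator, under LD (-1.67, limma adjusted p = 0.00529), and *ACS2*, an ethylene synthesis gene, was higher under LD (3.27, limma adjusted p = 0.00336). With 68 and 69 merged, 1 of the 14 was higher and 1 lower under LD and 1 lower under CLL. The count models also called targets higher under CLL. There edgeR called 2 higher and 2 lower (2.03% and 1.94% of all genes) and DESeq2 2 and 2 (1.58% and 1.81%). Under LD edgeR called 3 higher and 2 lower (2023 and 2068 of all 30388 genes) and DESeq2 2 and 2 (1954 and 2021).

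Between light regimes, 5 of the 14 targets were lower under LD in Col-0 (*PAD3*, *CYP71A13*, *ICS1*, *PR1* and *FRK1*), beside 3.83% of all genes. In *rtnlb16-1* 4 were lower (*PAD3*, *CYP71A13*, *PR1* and *EDS1*), beside 3.28%, and none of the 14 was higher in either genotype. With 68 and 69 merged, 4 were lower in Col-0 (2.73% of all genes) and 3 in *rtnlb16-1* (1.67%). The camalexin gene *PAD3* had 2.86, 15.8 and 20.6 normalized counts in Col-0 under LD, 0, 8.79 and 14.3 in *rtnlb16-1* under LD, 366.5, 691 and 361 in Col-0 under CLL, and 2648, 2541 and 3809 in *rtnlb16-1* under CLL. Like *WRKY40*, *WRKY63* and *WRKY75*, it was highest in *rtnlb16-1* under CLL. The *PAD3* log2 fold change of LD against CLL was -5.33 in Col-0 and -9.12 in *rtnlb16-1* (limma adjusted p = 0.000735 and 9.42e-06).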

How the data were processed

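Leaf RNA of 12 libraries in 4 groups was analysed. The authors used STAR to align reads to TAIR10 and HTSeq to count them, and deposited a signal per gene, which is the count after scaling with DESeq2 size factors, with no filter on genes. By a check, 100% of the values are whole reads times a factor of the library (relative tolerance 1e-06), and the recovered reads number 25954730 to 44747661. Intervals and limits cover counting error only, and p-values measure the spread between libraries of pooled leaves. After adding a pseudocount of 1 and taking log2, limma 3.58.1 (R 4.3.3, trend) was fitted to 4 group means over the 12 libraries. The 47 members and all lists were chosen with earlier results of these data known.

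As alternatives, the pseudocount was set to 0.5 or 5, low genes were dropped (under 10 in all but 2 libraries), scaling was by TMM or upper quartiles, only the groups compared were fitted, edgeR 4.0.16 or DESeq2 1.42.0 tested the recovered reads, and calls were made at an adjusted p under 0.05, without a minimum fold or at an unadjusted p under 0.01. Each library was also left out, and libraries 68 and 69 were merged. They were kept apart otherwise because their mean chi-square exceeded a limit of 1.5. Values in every library are given for the 20 members with the largest log2 fold change among those called between genotypes or among the 5 largest in a light comparison. Subgroups follow the usual classification of the family. The tests were tried on simulated data. Coordinates, exon lengths and sequences come from the RefSeq annotation of TAIR10.1, where all 47 members were matched. Tables and figures were made in Python 3.11.15 (pandas 2.3.3, numpy 2.4.6, scipy 1.17.1, matplotlib 3.10.9).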

Additional observations from a re-analysis of the deposited data

Results flagged for a closer look

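The genotype difference of 3 WRKY genes differed between light regimes in edgeR, by the test of the interaction, though not in limma. For *WRKY54* the interaction, the LD log2 fold change of *rtnlb16-1* against Col-0 minus that under CLL, was -2.91 in edgeR (adjusted p = 3.64e-06) and -2.72 in limma (adjusted p = 0.0521). For *WRKY70* it was -2.50 in edgeR (adjusted p = 2.39e-06) and -2.60 in limma (adjusted p = 0.0318). For *WRKY50* it was 1.98 in edgeR (adjusted p = 0.00568) and 2.11 in limma (adjusted p = 0.0543), with a genotype difference under CLL and overlapping genotypes under LD. With libraries 68 and 69 merged the limma values were -2.47, -2.41 and 2.09 (adjusted p = 0.182, 0.132 and 0.151) for *WRKY54*, *WRKY70* and *WRKY50*.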

How the results depend on the processing

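No paired analysis was possible because the labels give no pairing of libraries between the 4 groups. No member call changed direction under any alternative. Of 53 member calls by limma, 21 held without any 1 library. For *rtnlb16-1* against Col-0 under CLL, where 3 members were called (0 higher and 3 lower), pseudocounts of 0.5 and 5 gave 1 (1 lower) and 5 (2 higher), the filter on low values 6 (2 higher), edgeR 15 (6 higher and 9 lower), DESeq2 14 (6 and 8), an adjusted p under 0.05 10 (3 and 7), an unadjusted p under 0.01 13 (5 and 8), and libraries 68 and 69 merged 0 (0 lower). Leaving out 1 library gave 0 to 3 called, 0 to 0 higher and 0 to 3 lower. Over all genes the main fit called 254 higher and 216 lower under CLL. An adjusted p under 0.05 gave 557 and 470, and an unadjusted p under 0.01 gave 885 and 676. A pseudocount of 0.5 gave 230 and 203, a pseudocount of 5 gave 253 and 246, and the filter 254 and 261. By edgeR 617 and 590 were called, by DESeq2 481 and 550, and without 1 library 107 to 215 and 48 to 180. Under LD, where 16 were called (7 higher and 9 lower), a fit of only the 2 groups gave 1 (1 higher and 0 lower). That fit had fewer libraries to estimate the spread. The merged libraries gave 4 higher, and leaving out 1 library gave 10 to 14 called, 3 to 7 higher and 6 to 9 lower. Over all genes the main fit called 1822 higher and 1643 lower, and the fit of only the 2 groups 393 and 180. Without 1 library these were 1131 to 1596 and 1074 to 1486. For LD against CLL in Col-0, where 16 were called, a fit of only the 2 groups gave 1, edgeR 25, an unadjusted p under 0.01 25, the merged libraries 8 and leaving out 1 library 6 to 14. In *rtnlb16-1*, where 18 were called, a fit of only the 2 groups gave 3, the merged libraries 10 and leaving out 1 library 8 to 16. Over all genes, 1165 were lower under LD in Col-0 in the main fit and 35 with only the 2 groups. By edgeR 1825 were lower there, at an unadjusted p under 0.01 2250 and without 1 library 526 to 950. In *rtnlb16-1* 997 were lower, 301 with only the 2 groups and 459 to 1171 without 1 library. For the interaction, where 0 were called, a pseudocount of 5 gave 1, edgeR 3 and DESeq2 3. An adjusted p under 0.05 gave 1, an unadjusted p under 0.01 7 and leaving out 1 library 0 to 0. Over all genes the interaction had 120 higher and 162 lower in the main fit and 118 and 145 with a pseudocount of 5. An adjusted p under 0.05 gave 451 and 478, and an unadjusted p under 0.01 gave 980 and 980. The cause of these differences was not tested. Fits with libraries or groups left out or merged also had fewer libraries. TMM and upper-quartile scaling changed no count by more than 1.5 times. Members such as *WRKY41*, *WRKY62* and *WRKY75* had few or no reads under LD, so their LD levels are known only within wide counting limits. The part of sequencing depth was not tested.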
